A study of Drosophila melanogaster with 15 samples.

Results

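The genes described here encode nuclear subunits of the respiratory chain and of ATP synthase in the fruit fly Drosophila melanogaster. They were chosen by name: every microarray probe set with a single current gene symbol that starts with ND- (complex I), UQCR- (complex III), ATPsyn (complex V) or COX and a digit from 4 to 8 (complex IV). That rule gave 62 probe sets for 60 genes, out of 13966 probe sets tested and 10844 genes with a single symbol. Each gene was represented by its probe set with the highest mean over the 15 arrays, and only ATPsynC and ND-MNLL had a second one. The 60 genes comprise 31 of complex I, 4 of complex III, 11 of complex IV and 14 of complex V. A further 20 symbols that fit the rule in the RefSeq gene table, among them the complex III core proteins UQCR-C1 and UQCR-C2, had no probe set of their own and were not analysed here.

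RNA came from whole embryos picked by hand under a dissecting microscope for their morphology. The 5 stages, with 3 arrays each, were T0 (younger than nuclear cycle 9, before pole cells bud and before zygotic transcription), T1 (slow phase of cellularisation), T2 (fast phase of cellularisation), T3 and T4. For T3 and T4 the sources differ: on the samples they begin and finish germ band elongation, in the series text they begin and finish gastrulation. Flies of the yellow white and Oregon R strains are named as parents of the T0 and T1 embryos, and the T2 to T4 embryos carry the same 2 strain names. No embryo was treated. The labels do not say which array holds which strain, how many embryos were pooled, or whether the 3 arrays of a stage came from separate collections, so p-values measure the spread between these arrays only, which may be technical. Array numbers are those of the titles: 2, 3 and 4 at T0, 1, 3 and 4 at T2, and 1, 2 and 3 at the other stages, and values are listed in that order.

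Oxidative phosphorylation passes electrons from NADH through complex I, and from succinate through complex II, to complexes III and IV and on to oxygen. Protons pumped on the way drive complex V, the ATP synthase, in which the catalytic F1 head turns over as protons cross the membrane-embedded Fo part. A few core subunits are made from mitochondrial DNA, and all others are nuclear genes translated in the cytoplasm and imported. The egg receives its mitochondria and a store of RNA from the mother. Zygotic transcription starts on a large scale around cellularisation, when much of the maternal RNA is degraded.

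The array signals are in arbitrary units, scaled to a trimmed mean of 100 on each array, which makes each change below relative to the array's average signal. Array medians ranged between 22.2 and 36.3, and arrays of the same stage correlated at 0.925 to 0.964 (Pearson's r across probe sets of log2 signals) against 0.749 to 0.949 between stages. Background was set at 22.0, the 95th percentile of 23 negative-control probe sets, and 39.0% to 49.7% of signals on an array lay below it. The stage markers followed the labels: 7 zygotic cellularisation genes summed to 29715 ± 1458 at T1, against 1514 ± 152 at T0, and 5 maternal transcripts summed to 854 ± 65.3 at T1, against 8569 ± 688 at T0 (SD, n = 3 each). The summed signal of 12 eggshell and yolk genes, which would mark mothers or retained eggs, was 313 ± 27.0 at T0, 329 ± 24.4 at T1, 446 ± 27.9 at T2, 463 ± 85.8 at T3 and 456 ± 37.9 at T4 (SD, n = 3). Every array from T2 on was above every earlier one, and its part in the results was not tested. In whole embryos, fewer cells of a type and less RNA per cell cannot be told apart.

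With the arrays as deposited, most subunit genes that were above background and not paralogs had their lowest mean signal at T0 and their highest at T2. Signals of 46 of the 60 genes lay above background on all 15 arrays. These comprise 2 of 14 paralogs (ATPsynbetaL and ND-B14.5AL) and 44 of the other 46 genes. Paralogs here are genes whose symbol ends in L or in L and a digit, other than ND-MNLL, where the letter belongs to the subunit's name. They were set apart after their low signals had been seen. Of the 44, 26 (59.1%) had their highest mean at T2, against 14.0% of the 8169 probe sets with a mean above background. Another 8 members, all paralogs, had a mean above background and are counted only among those probe sets. The lowest mean fell at T0 for 29 of the 44 (65.9%), against 37.1% of those probe sets. At the opposite end, 9 of the 44 genes (20.5%) were highest at T0, a smaller share than the 29.9% of those probe sets. The stage of the maximum turned with the scaling, a check by log2 means added after these values were seen. With arrays centred on their medians, 26 of the 44 (59.1%) were highest at T1 and 9 (20.5%) at T2. The shares of those probe sets were 33.4% and 9.35%. With arrays centred on ribosomal proteins, 24 (54.5%) were highest at T0 and 7 (15.9%) at T2, against 56.7% and 5.14%. T2 stayed the most frequent maximum with hybridisation controls (29 genes, 65.9%, against 15.9%) and after quantile normalization (19 genes, 43.2%, against 15.1%).

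The median over all 60 genes of the log2 signal, taken relative to each gene's own T0 mean, was 0.45 ± 0.03 at T1, 0.64 ± 0.04 at T2, 0.50 ± 0.06 at T3 and 0.42 ± 0.18 at T4 (SD, n = 3 arrays). The same median over all 13966 probe sets was 0.04 ± 0.07, 0.11 ± 0.01, 0.08 ± 0.09 and 0.14 ± 0.06 at these stages. Every array from T1 to T4 stood above the 3 T0 arrays, whose medians over the 60 genes were -0.17, 0.05 and 0.10. Array 2 of T4 stood apart from the other T4 arrays, at 0.63 against 0.35 and 0.29. Among all probe sets, a moderated F test over the 5 stages (limma, Benjamini-Hochberg adjusted p under 0.05) found a change for 44.1% (68.2% of those with a mean above background), and among the 60 subunit genes for 36. That count was 21 after quantile normalization, 17 with arrays centred on ribosomal proteins and 7 with arrays centred on hybridisation controls. The shares of all probe sets that passed under these settings are not given here.

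**Figure D1:**
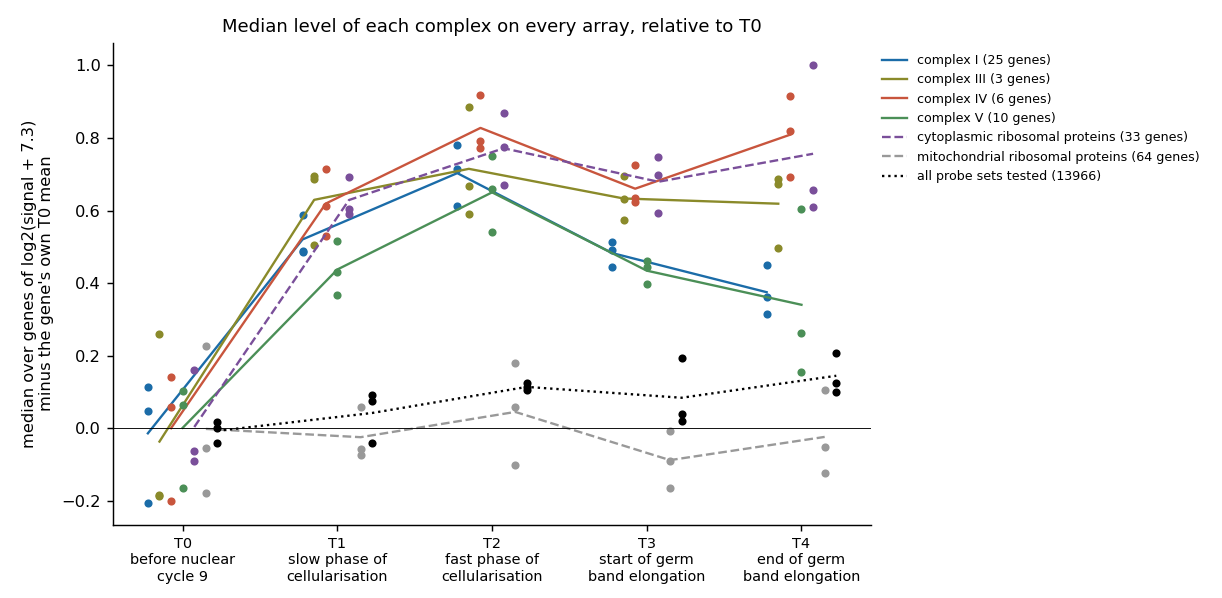
Median over the genes of each complex of log2(signal + 7.3) minus the gene's own T0 mean, one point per array and a line through the mean of the 3 arrays of each stage (T0 to T4); paralogs and genes with a mean below background are left out. All 4 complexes stand above T0 from T1 on with the arrays as deposited, and at T4 complex IV averages 0.81, complex I 0.38 and complex V 0.34, beside 0.76 for the 33 cytoplasmic ribosomal protein genes; centring the arrays on ribosomal proteins or hybridisation controls takes the T1 median of these 44 genes below 0.

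The first comparison set the slow phase of cellularisation against the maternal RNA pool. Of the 60 genes, 23 rose at T1 at an adjusted p under 0.05 (background 15.7% of all probe sets) and 6 fell (background 17.1%), in limma's test with Benjamini-Hochberg adjustment over all probe sets. Most of these changes were small: with a log2 fold change of 1 or more in size required as well, 2 were called higher (background 7.82%) and 5 lower (background 15%). The median log2 fold change was 0.43, against 0.08 over all probe sets. The rise depended on how the arrays are scaled, as the 60 genes had a median of -0.11 with arrays centred on hybridisation controls and -0.23 with arrays centred on ribosomal proteins, and 0 and 2 genes rose under these settings. Each centring shifts all genes of an array alike, and the shares of all probe sets that rose under them are not given here. Without T0 replicate 2, 15 genes rose. The 6 that fell stood clear of the other members above background on all arrays, of which the next lowest log2 fold changes were -0.32 for ND-B14.5AL, -0.31 for ND-19 and -0.30 for ATPsyngamma, none of them past the threshold.

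**Figure D2:**
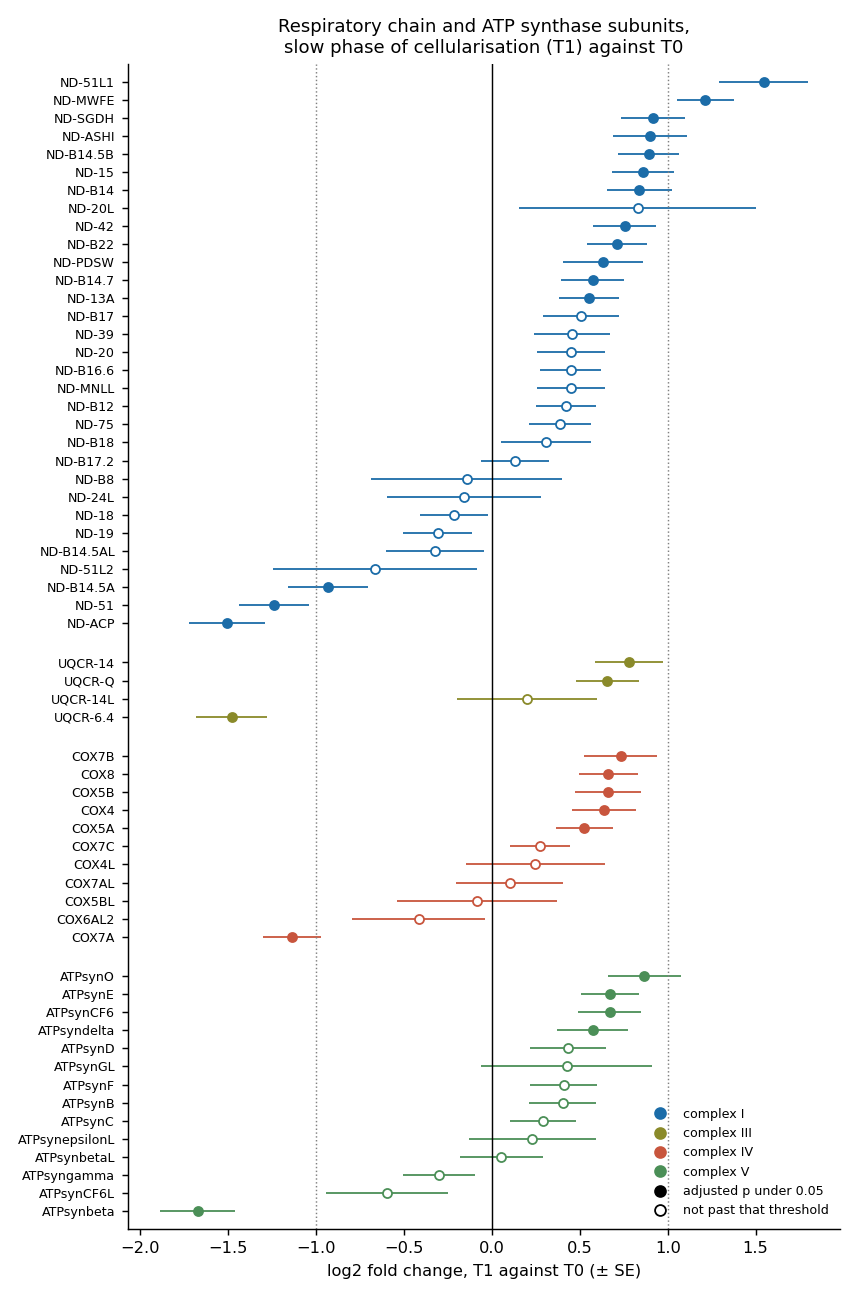
Log2 fold change of each of the 60 genes at T1 against T0 (± SE of the limma fit, 3 arrays a stage), grouped by complex, with filled points at an adjusted p under 0.05 and dotted lines at a log2 fold change of 1 in size. Each complex has most of its genes between 0 and 1 with the arrays as deposited, and 1 to 3 genes far to the left, ND-ACP, ND-51 and ND-B14.5A in complex I, UQCR-6.4 in complex III, COX7A in complex IV and ATPsynbeta in complex V.

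Falls at T1 were less frequent among the 60 genes (10% at an adjusted p under 0.05) than among all probe sets (17.1%). Each of the 4 complexes contained a gene that fell at T1 while most of its partners did not. In complex I this was seen first for ND-ACP, the mitochondrial acyl carrier protein, which sits in the complex and also carries growing fatty acids. Its signal was 352, 384 and 398 at T1, against 912, 1237 and 1134 at T0. The groups did not overlap, and every later array stayed low as well, between 286 and 471 at T2 to T4. The log2 fold change was -1.51 ± 0.22 (SE; limma adjusted p = 8.2e-05). ND-51, the core subunit that binds NADH and FMN, had signals of 283, 194 and 206 at T1, against 537, 502 and 584 at T0. The highest T1 value was well below the lowest T0 value, and the log2 fold change was -1.24 ± 0.20 (limma adjusted p = 0.00023). ND-B14.5A, an accessory subunit, had 323, 289 and 315 at T1, against 491, 523 and 825 at T0. All 3 T1 arrays were lower here too, although T0 replicate 4 stood well above the other T0 arrays, and the log2 fold change of -0.93 ± 0.23 passed the test (limma adjusted p = 0.0052) without reaching 1 in size.

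In complex III, UQCR-6.4, a small subunit, had signals of 290.5, 401 and 394 at T1, against 979, 873 and 1214 at T0. No T1 value came near a T0 value, with a log2 fold change of -1.48 ± 0.20 (limma adjusted p = 5.1e-05). In complex IV, COX7A, a small nuclear-encoded subunit of cytochrome c oxidase, had 478, 472 and 514 at T1, against 1164, 1018 and 1076 at T0. The arrays of each stage lay close together and the stages far apart (log2 fold change -1.14 ± 0.16, limma adjusted p = 8.9e-05). With arrays centred on their medians the log2 fold change was -0.97, past the p threshold but under 1 in size. In complex V, ATPsynbeta, the catalytic F1 subunit, had 30.2, 32.9 and 46.8 at T1, against 123, 123 and 149.9 at T0. The T1 arrays were the lowest of all 15 for this gene, only a little above background, and the log2 fold change was -1.68 ± 0.21 (limma adjusted p = 2.8e-05), the lowest of the 60. The probe set used averaged 90.0 over the 15 arrays, below the 138 of the paralog ATPsynbetaL, and how well it reports the gene was not tested.

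**Figure D3:**
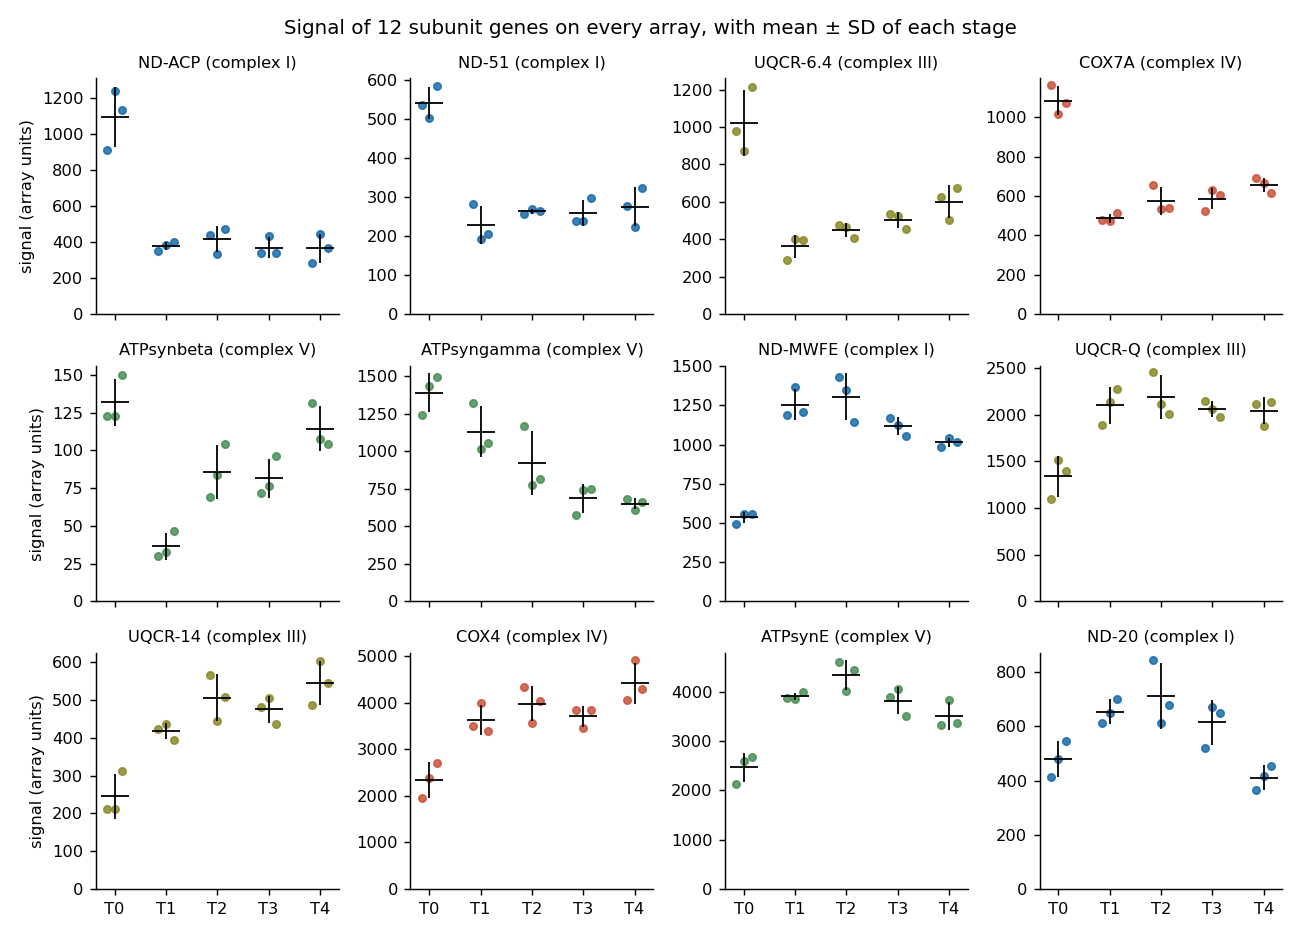
Signal (array units, linear axis from 0) of 12 subunit genes on each of the 15 arrays from T0 to T4, with the mean and SD of each stage as black bars. ND-ACP, ND-51, UQCR-6.4, COX7A and ATPsynbeta drop between T0 and T1, ATPsynbeta overlaps its T0 range at T4, ATPsyngamma declines over the stages, and ND-MWFE, UQCR-Q, UQCR-14, COX4 and ATPsynE are lowest at T0.

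Complex I had 12 of its 31 measured genes higher (38.7%, background 15.7%) and 3 lower (9.68%, background 17.1%) at T1 at an adjusted p under 0.05. ND-MWFE, a small membrane subunit whose mammalian counterpart is needed to assemble the complex, had 1186, 1368 and 1210.5 at T1, against 496, 559 and 557 at T0. Every T1 array had more than any T0 array, and the log2 fold change of 1.21 ± 0.16 (limma adjusted p = 4.4e-05) was the only call of a rise outside the paralogs. It came to 0.67 with arrays centred on hybridisation controls, where it no longer passed (adjusted p = 0.15). The other rising genes above background on all arrays were accessory subunits, ND-SGDH, ND-ASHI, ND-B14.5B, ND-15, ND-B14, ND-42, ND-B22, ND-PDSW, ND-B14.7 and ND-13A, with log2 fold changes between 0.55 and 0.92. Of the 3 catalytic core subunits measured, ND-51 fell, whereas ND-75 (0.39, adjusted p = 0.13) and ND-20 (0.45, adjusted p = 0.096) did not pass limma's test. The complex I genes with the highest signals were ND-B16.6 and ND-B22. ND-B16.6, the fly counterpart of mammalian GRIM-19, had 1596, 1976 and 1727 at T1, against 1194, 1344 and 1332 at T0, which did not overlap but did not pass the test (limma adjusted p = 0.063). ND-B22 had 1508, 1544 and 1565 at T1, against 805, 969 and 1054 at T0, and rose by 0.71 on the log2 scale (limma adjusted p = 0.0046).

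In complex III, the other 2 genes outside the paralogs rose (background 15.7%). UQCR-Q, a small subunit, had 1884, 2139 and 2275 at T1, against 1094, 1518 and 1400.1 at T0, a log2 fold change of 0.66 ± 0.18 (limma adjusted p = 0.011). UQCR-14, another nuclear subunit, had 424, 436 and 394 at T1, against 211, 211 and 313 at T0. Its T1 arrays lay close together and above all T0 arrays, of which replicate 4 was the highest (log2 fold change 0.78 ± 0.19, limma adjusted p = 0.006). Both gains are relative to the array average: UQCR-Q was at 0.00 with arrays centred on ribosomal proteins.

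Complex IV had 5 of 11 genes higher at T1 (background 15.7%), COX4, COX5A, COX5B, COX7B and COX8, all nuclear-encoded subunits around the mitochondrially encoded catalytic core. Their log2 fold changes lay between 0.53 and 0.73, and with arrays centred on ribosomal proteins COX4, COX5A and COX5B were at -0.02, -0.13 and 0.00. COX4 had signals of 3493, 3993 and 3397 at T1, against 1946, 2379 and 2707 at T0. COX5B had 2083, 2482 and 2640.2 at T1, against 1213, 1616 and 1757 at T0. In both genes all T1 arrays exceeded all T0 arrays, and T0 replicate 2 was the lowest of the 15.

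In the ATP synthase, genes of the stalk and the membrane part differed in sign from part of the F1 head. All 7 measured genes of the peripheral stalk and Fo (ATPsynB, ATPsynC, ATPsynCF6, ATPsynD, ATPsynE, ATPsynF and ATPsynO) had positive log2 fold changes at T1, with a median of 0.43. Of the 7, 3 passed the test (background 15.7% rising). These were ATPsynO, which joins the stalk to the head (0.87 ± 0.21, limma adjusted p = 0.0049), ATPsynE, a membrane subunit (0.67 ± 0.17, adjusted p = 0.0056), and ATPsynCF6, a stalk subunit (0.67 ± 0.18, adjusted p = 0.0087). ATPsynE had 3878, 3855 and 3998 at T1, against 2124, 2590.0 and 2688 at T0. ATPsynD, a stalk subunit, had 3279.7, 2964 and 3059 at T1, against 2025, 2318 and 2583 at T0. The stages did not overlap in either gene, but ATPsynD did not pass (log2 fold change 0.43 ± 0.22, limma adjusted p = 0.16). Of the 3 F1 genes, the catalytic ATPsynbeta fell, the central stalk gene ATPsyndelta rose by 0.57 on the log2 scale (limma adjusted p = 0.043), and the rotor gene ATPsyngamma was at -0.30 ± 0.20 (adjusted p = 0.33). The alpha subunit gene blw, which falls outside the name rule, had 2778 ± 172 at T1, against 3555 ± 687 at T0 (SD, n = 3 each; log2 fold change -0.34, adjusted p = 0.21). The signs of the stalk and Fo genes depended on the scaling: 3 of the 7 were positive with arrays centred on ribosomal proteins (median -0.23) and 3 with hybridisation controls (median -0.11). The difference between the parts of the enzyme was not tested.

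From slow to fast cellularisation, 1 of the 60 genes was called higher (background 5.39%) and 0 lower (background 4.25%). That gene was ATPsynbeta, with 68.9, 84 and 104 at T2, against 30.2, 32.9 and 46.8 at T1. All T2 arrays were above all T1 arrays, and the log2 fold change was 1.08 ± 0.21 (limma adjusted p = 0.0035). The call rested on single arrays, as the log2 fold change came to 0.98 without T1 replicate 1 and 0.94 without T2 replicate 4, both under 1. Without regard to size, 1 gene rose (background 7.63%) and 0 fell (background 5.72%). At an unadjusted p under 0.05, for which no background is given here, these counts were 3 and 0. The median of the 60 was 0.14, as it was over all probe sets, and -0.10 with arrays centred on their medians.

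The next 2 steps gave no calls among the 60, where the background was under 1% in each direction. From T2 to T3, 0 of the 60 genes were called higher (background 0.666%) or lower (background 0.773%), and 0 passed limma's test at any size (background 0.866% and 0.974%). At an unadjusted p under 0.05, for which no background is given at either step, 1 gene was higher at T3 and 0 lower. From T3 to T4, 0 genes were called higher (background 0.516%) or lower (background 0.558%), 0 passed at any size (background 0.616% and 0.738%), and 1 was higher and 2 lower at an unadjusted p under 0.05. The median log2 fold change was -0.13 at T3 against T2, with 46 of the 60 negative, against -0.0035 over all probe sets. At T4 against T3 it was -0.08, with 38 of the 60 negative, against 0.07 over all probe sets.

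Set against the maternal pool, the end of germ band elongation had 3 of the 60 genes called higher (background 11.9%) and 2 lower (background 12.3%). Without regard to size, 18 rose (background 17.5%) and 5 fell (background 15.5%), and the median log2 fold change was 0.44, against 0.19 over all probe sets. With arrays centred on hybridisation controls 0 rose and 8 fell, and with arrays centred on ribosomal proteins 0 rose and 17 fell. Both centrings lower the log2 fold change of every gene alike at this comparison. The shares of all probe sets that fell under them are not given here, so these counts have no background to be read against. UQCR-14 was called higher, with 488, 603 and 546 at T4, against 211, 211 and 313 at T0. Its T4 arrays stood clear of T0 in every case (log2 fold change 1.15 ± 0.19, limma adjusted p = 0.00034). Without T0 replicate 4, 5 genes were called higher, as COX4, COX8 and ND-ASHI passed a log2 fold change of 1 and ND-51L1 no longer did. The other calls of a rise were of 2 paralogs, ND-51L1 and ATPsynepsilonL. All 5 complex IV genes that had risen at T1 were also higher at T4, by 0.69 (COX5A) to 0.95 (COX7B) on the log2 scale. COX4 reached 4064, 4917 and 4289.6 at T4, against 1946, 2379 and 2707 at T0. COX5B reached 2296, 2642 and 2932 at T4, against 1213, 1616 and 1757 at T0. Both genes kept all T4 arrays above all T0 arrays.

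The 2 calls of a fall at T4 were ND-ACP and ATPsyngamma. ND-ACP had 286, 443 and 365 at T4, against 912, 1237 and 1134 at T0, so the drop seen at T1 was still present (log2 fold change -1.58 ± 0.22, limma adjusted p = 5.7e-05). ATPsyngamma, the central rotor shaft of F1, had 679.6, 611 and 662 at T4, against 1241, 1437 and 1491 at T0. Its stage means went down at each step, at 1389.8 ± 132 at T0, 1131 ± 168 at T1, 920.4 ± 215 at T2, 687 ± 97 at T3 and 651 ± 35.8 at T4 (SD, n = 3), and of the steps compared only the whole span gave a call (log2 fold change -1.08 ± 0.20, limma adjusted p = 0.00085). Without regard to size, ND-51 (-0.97 ± 0.20), UQCR-6.4 (-0.76 ± 0.20) and COX7A (-0.72 ± 0.16) were still lower at T4 (limma adjusted p = 0.0016, 0.0093 and 0.0037). ND-B14.5A (-0.55 ± 0.23, adjusted p = 0.081) no longer passed. ATPsynbeta had 131, 108 and 104 at T4, against 123, 123 and 149.9 at T0, overlapping ranges with a log2 fold change of -0.19 ± 0.21 (limma adjusted p = 0.54). At the stages in between it averaged 36.6 ± 8.91 at T1, 85.7 ± 17.7 at T2 and 81.6 ± 13.1 at T3 (SD, n = 3), and T2 and T3 were not tested against T0.

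After fast cellularisation, most genes of complexes I and V other than paralogs had lower signals, and those of complexes III and IV lay on both sides of 0. At T4 against T2, a comparison added after the earlier ones had been seen, the median log2 fold change was -0.30 over 26 genes of complex I, 0.11 over 3 of complex III, -0.04 over 7 of complex IV and -0.34 over 10 of complex V, against 0.07 over all probe sets. Negative values were found for 22 of the 26, 1 of the 3, 4 of the 7 and 9 of the 10, and the difference between complexes was not tested. The medians of complexes I and V were negative under all 5 scalings, whereas that of complex III (-0.04 with arrays centred on their medians) and that of complex IV (0.04 with ribosomal proteins) changed sign. Each centring shifts all genes of an array alike, so only quantile normalization could have changed the order of the complexes. It gave medians of -0.21, 0.19, 0.04 and -0.22 for complexes I, III, IV and V. Of the 60 genes 1 was called higher (background 4.77%) and 0 lower (background 3.21%). At any size, 1 rose (background 6.70%) and 2 fell (background 5.15%). At an unadjusted p under 0.05 these counts were 1 and 13. The shares of all probe sets at an unadjusted p are not given here, so these last counts have no background to be read against. Both genes that fell at an adjusted p under 0.05 belong to complex I. ND-20, a core subunit that carries an iron-sulfur cluster, had 364, 416 and 453 at T4, against 846, 612 and 679 at T2. The stages did not overlap (log2 fold change -0.78 ± 0.19, limma adjusted p = 0.018). ND-MNLL, an accessory subunit, had 573, 692 and 669 at T4, against 1116, 909 and 988 at T2 (log2 fold change -0.63 ± 0.19, limma adjusted p = 0.049). Its second probe set had 429, 598 and 538 at T4, against 1200.0, 756 and 965 at T2, and moved the same way (log2 fold change -0.88 ± 0.21, limma adjusted p = 0.014). Whether they passed depended on the processing. ND-20 passed in 12 and ND-MNLL in 4 of 17 alternatives. With hybridisation controls the adjusted p was 0.15 for ND-20 and 0.25 for ND-MNLL, with the replicate number as a block 0.075 and 0.16, without T2 replicate 1 0.078 and 0.15, and without T4 replicate 1 0.069 and 0.16. ND-MNLL also missed the threshold without each of the other T2 and T4 arrays (adjusted p between 0.062 and 0.1). In complex V, array 2 of T4 stood apart: its median relative to T0 over the 10 genes was 0.60, against 0.15 and 0.26 on the other T4 arrays.

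**Figure D4:**
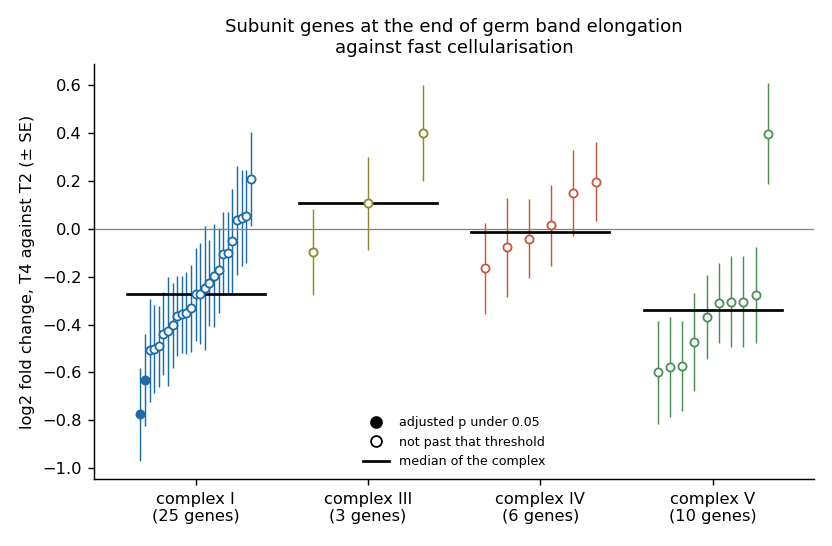
Log2 fold change of each gene other than the paralogs, and above background on all 15 arrays, at T4 against T2 (± SE of the limma fit), by complex, with a black bar at the median. Most genes of complexes I and V lie below 0, those of complexes III and IV on both sides, and 2 genes of complex I (filled, ND-20 and ND-MNLL) pass the test.

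Genes with a lower signal allow fewer statements. Of the 14 paralogs, 2 were above background on all 15 arrays, 2 (COX6AL2 and COX7AL) on none and 10 on some. COX7C and ND-B8, which are not among the paralogs, were above background on 0 and 3 arrays. The paralog with the highest signal was ATPsynbetaL, at 97.4 to 208 over the 15 arrays, with a log2 fold change of 0.05 ± 0.24 at T1 against T0 (limma adjusted p = 0.92). ND-51L1, a paralog of the NADH-binding subunit, had 59.1, 80.6 and 80.3 at T1, against 24.4, 28.7 and 10.7 at T0. Its T1 arrays were all above background and above all T0 arrays, 1 of which was below background (log2 fold change 1.55 ± 0.25, limma adjusted p = 0.00026). At T4 it had 61.3, 43.2 and 62.9 (log2 fold change against T0 1.19 ± 0.25, limma adjusted p = 0.0021), which came to 0.89 without T0 replicate 4. It did not pass the test with arrays centred on hybridisation controls, either at T1 (log2 fold change 1.00, adjusted p = 0.089) or at T4 (0.76, adjusted p = 0.21), and with ribosomal proteins it was at 0.89 at T1 (adjusted p = 0.042) and 0.49 at T4 (adjusted p = 0.24). ND-51 itself went the other way at T1. ATPsynepsilonL, a paralog of the epsilon subunit, had 65.7, 65 and 37.4 at T4, 9.3, 15.8 and 20 at T2 and 12, 28 and 14.3 at T0. The T4 arrays were all above background and the T2 arrays all below it, so T4 was at least 2.47-fold higher than T2 (limma adjusted p = 0.015), and the log2 fold change at T4 against T0 was 1.33 ± 0.36 (adjusted p = 0.011). The call at T4 against T2 was lost without T2 replicate 1, T4 replicate 1 or T4 replicate 2 (adjusted p = 0.066, 0.059 and 0.055). COX5BL lies on chromosome arm 2L with a single gene between it and COX5B, and was above background on 1 array, whereas COX5B ranged between 1213 and 3070.

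The second probe set of ATPsynC, which encodes the proton-carrying ring of Fo, had 73.9, 67.6 and 44.7 at T1, against 108, 87.6 and 77.2 at T0, a log2 fold change of -0.52 ± 0.28 (limma adjusted p = 0.19). The probe set used for that gene had 807, 770.0 and 744 at T1, against 621, 737 and 551 at T0 (0.29 ± 0.19, limma adjusted p = 0.31). The probe sets thus differ in sign at this step, and neither passed the test.

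Genes around the same pathway were set beside the 60. The background of all probe sets was 15.7% rising and 17.1% falling at T1 against T0, and 17.5% and 15.5% at T4 against T0. In complex II, which feeds electrons from succinate, 5 genes were measured and 0 passed limma's test at T1 against T0 or had an unadjusted p under 0.05, with a median log2 fold change of 0.36. At T4 against T0 the median was 0.25, with 3 of the 5 positive. SdhB and SdhD fell, with means of 336 and 159 at T4, against 666 and 524 at T0 (3 arrays each; log2 fold changes -0.99 and -1.65, limma adjusted p = 0.0067 and 9.1e-05). SdhAL passed the test in the other direction (log2 fold change 0.80, limma adjusted p = 0.038) but was below background on all arrays of both stages. Of 8 further genes of complexes III to V that carry other names, 3 rose at T1 and 0 fell, with a median of 0.45. These were ox, a subunit of complex III (log2 fold change 0.89, limma adjusted p = 0.0011), cype, a subunit of complex IV (0.88, adjusted p = 0.0012), and Cyt-c1, a cytochrome of complex III (0.56, adjusted p = 0.014). At T4 cype was called higher, with a mean of 4511 at T4, against 1914 at T0 (log2 fold change 1.24, limma adjusted p = 6.9e-05).

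Lists of genes that assemble the chain or serve mitochondria in other ways were described at T1 against T0, with no test of their difference from the subunits. The background at this step was 15.7% of all probe sets rising and 17.1% falling, with 15% called lower. Of 12 measured assembly factors, 0 rose in limma's test (1 at an unadjusted p under 0.05) and 8 fell, 7 of them called, with a median log2 fold change of -1.50. Cox17, a copper carrier for cytochrome c oxidase, had 6.9, 5 and 3.3 at T1, against 216, 295 and 452 at T0, at least 14.0-fold lower (limma adjusted p = 9.3e-08). Scox, another copper delivery factor, had 21, 17.2 and 22.4 at T1, against 265, 267 and 267 at T0, with 2 of the 3 T1 arrays below background (log2 fold change -3.32, limma adjusted p = 9.2e-08). ttm50, a gene of the import machinery that is also in the list of assembly factors, was at least 10.2-fold lower (limma adjusted p = 8.4e-08). Of 20 measured import and chaperone genes, 1 rose and 8 were called lower, with a median of -0.55, led by the chaperonin Hsp60A at 49.5 ± 28.5 at T1, against 2477 ± 197 at T0 (SD, n = 3 each; limma adjusted p = 4.1e-06). Of 12 genes for mitochondrial DNA and RNA maintenance, 1 rose and 5 were called lower, with mtSSB, the single-strand binding protein of mitochondrial DNA, at a log2 fold change of -3.46 (limma adjusted p = 7e-08). Of 18 genes of the TCA cycle, 4 rose and 5 fell, with a median of -0.08, and of 9 carrier and porin genes 2 rose and 1 fell, with a median of 0.17.

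Ribosomal proteins were read at the same step, at which 15.7% of all probe sets rose and 17.1% fell, with 15% called lower. Of 33 cytoplasmic ribosomal protein genes, 20 rose at T1 and 0 fell, with a median log2 fold change of 0.63. Of 64 mitochondrial ribosomal protein genes, 10 rose and 20 fell, 14 of them called, with a median of 0.00. The median of the 44 subunit genes above background was below that of the cytoplasmic ribosomal proteins with the arrays as deposited. The centrings cannot change this order, as each shifts all genes of an array alike. After quantile normalization, which can change it, the subunit median was the higher (0.31 against 0.16).

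**Figure D5:**
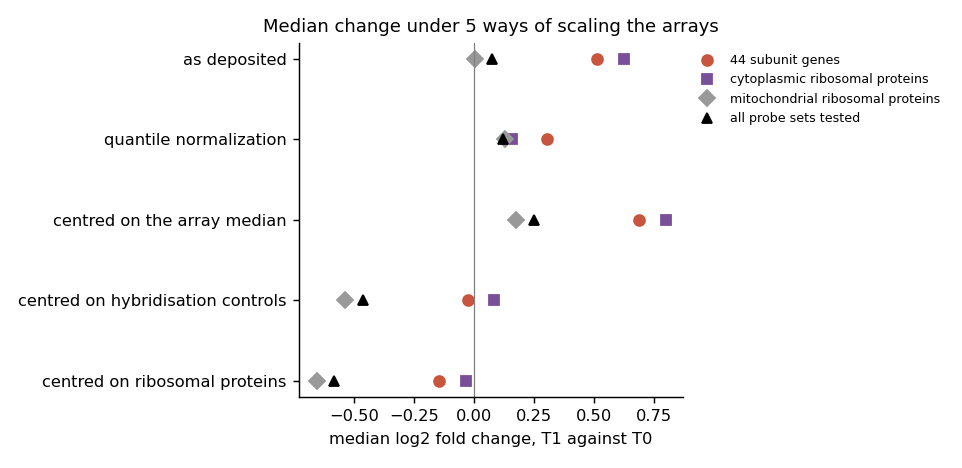
Median log2 fold change at T1 against T0 under 5 ways of scaling the arrays (rows), for the 44 subunit genes above background other than paralogs, the ribosomal protein lists and all probe sets. The subunit median is 0.52 as deposited, 0.31 after quantile normalization and 0.69 centred on array medians. It is -0.03 centred on hybridisation controls and -0.15 centred on ribosomal proteins. The subunit median exceeds that of all probe sets in each row. Each centring shifts all probe sets of an array alike, so the centred rows cannot change this order and do not test it. Only quantile normalization could have changed it.

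The hybridisation controls are bacterial and phage transcripts, and their median log2 signal was 8.88 ± 0.15 at T1, against 8.34 ± 0.43 at T0 (SD, n = 3 each). At T0 it ranged between 7.91 and 8.77 on single arrays. The ratio of the 3′ to the 5′ probe set of actin, a sign of RNA length, was 1.77 ± 0.10 at T1, against 2.04 ± 0.38 at T0. The same ratio was 4.38 ± 3.61 at T1, against 2.12 ± 0.35 at T0, for GAPDH, and 3.39 ± 1.04 at T1, against 3.04 ± 0.29 at T0, for eIF-4a. The ranges at T1 and T0 overlapped for actin as well as for GAPDH and eIF-4a. The part of these differences in the rise of the subunit genes was not tested. The falls of ND-ACP, ND-51, UQCR-6.4 and ATPsynbeta at T1 were called under all 5 scalings. Centring on hybridisation controls or ribosomal proteins lowers every log2 fold change alike at this step, so these scalings could only enlarge a fall. Centring on array medians and quantile normalization could have made it smaller.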

How the data were processed

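RNA of whole embryos of 5 stages was hybridised to 15 Affymetrix arrays, 3 for each stage. The authors deposited a table of MAS5 signal values per probe set, per the submitters' processing notes and the file headers; a trimmed mean of 100 on each array (2% cut at each end) shows that it was scaled. Other upstream steps are not given in the sources used here. The number of arrays limits the precision. After 44 control probe sets were left out, log2(signal + 7.3), with the pseudocount at the 25th percentile of the signals, was fitted for 13966 probe sets with limma 3.58.1 in R 4.3.3, with 1 mean per stage and Benjamini-Hochberg adjustment per comparison. A gene was called where the adjusted p was under 0.05 and the log2 fold change was 1 or more in size. The steps were tested on simulated data.

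Symbols came from the platform annotation, updated through Entrez numbers with the RefSeq table (12394 probe sets); 12443 probe sets had 1 symbol, 327 several and 1196 none. Members, lists and tests were chosen with earlier results of these data known. Every member could be named, and those printed with the value on each array of a stage were, by complex and comparison, the called members (up to 6 a direction), the 2 uncalled members with the highest mean, and the paralogs with the highest signal; of other lists, up to 3 called genes. ND-20, ND-MNLL, ND-B14.5A, ATPsynC, ATPsynO, SdhB, SdhD, SdhAL, Cyt-c1 and others named at any size were added after their values were seen. The fold change of a probe set at or below background on all arrays of a stage is a bound, taken against the background level. No promoter or protein sequences were used, so promoter motifs were not searched. Alternatives changed the scaling, pseudocount, filter, variance model, probe set, replicate block and arrays.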

Additional observations from a re-analysis of the deposited data

How the results depend on the processing

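Values below are over the 60 genes, without the shares of all probe sets under the same setting. With arrays centred on hybridisation controls, T1 against T0 had 0 called higher, 0 rising at any size and a median of -0.11. T4 against T0 then had 0 called higher, 5 called lower, 0 rising, 8 falling and a median of 0.02, and T4 against T2 had 0 called higher. The medians were 0.28 at T2 against T1 and -0.22 at T3 against T2, and 7 genes passed the F test. With arrays centred on ribosomal proteins, T1 against T0 had 0 called higher, 2 rising, 11 falling and a median of -0.23. T4 against T0 had 0 called higher, 10 called lower, 0 rising, 17 falling and a median of -0.25. T2 against T1 had 0 called higher and a median of 0.0252, T3 against T2 had a median of -0.0350, and 17 genes passed the F test. With arrays centred on their medians, T1 against T0 had 8 called higher and a median of 0.60, T2 against T1 had 0 called higher and a median of -0.10, and T4 against T0 had 1 called higher, 10 rising, 8 falling and a median of 0.22. After quantile normalization, T1 against T0 had 12 rising, 8 falling and a median of 0.27, T2 against T1 had 0 called higher, T4 against T0 had 8 falling, and 21 genes passed the F test. Which scaling is right cannot be told from these arrays, and the cause of these changes was not tested.

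With arrays centred on ribosomal proteins, single genes changed sign at T1 against T0: ATPsyndelta (-0.0882), COX4 (-0.0223), COX5A (-0.13), COX5B (-0.00077), ND-13A (-0.11), ND-B14.7 (-0.0862), ND-PDSW (-0.0299) and UQCR-Q (-0.0037). At T4 against T0 these were ATPsynE (-0.18), COX5A (-0.0066), ND-13A (-0.0318), ND-B14.7 (-0.13) and UQCR-Q (-0.0773). COX5A also did so at T1 with hybridisation controls (-0.0161). None of these passed limma's test there.

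With the pseudocount at the median signal, 29.6, T2 against T1 had 0 called higher, T4 against T0 had 1 called higher and 8 falling, and T4 against T2 had 0 called higher. With the dimmest 40% left out, 8 fell at T4 against T0. Without the paralogs, 1 was called higher at T1 against T0, 1 at T4 against T0 and 0 at T4 against T2. With the replicate number of the titles as a term (replicate block), T2 against T1 had 0 called higher. In their deviations from the stage mean, arrays with the same number had r between -0.042 and 0.075 (median 0.019, 23 pairs). For arrays with different numbers r was between -0.0998 and 0.055 (median -0.0068, 67 pairs). Of the 15 arrays, 8 correlated best with an array of their own number. All values were near 0 and the median was slightly higher for equal numbers. Whether the numbers pair samples was not tested, and the main fit has no term for them.

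With each array left out in turn, counts called higher were 2 to 3 at T1 against T0, 0 to 2 at T2 against T1, 3 to 5 at T4 against T0 and 0 to 1 at T4 against T2, and rising genes were 15 to 24 at T1 against T0. The median at T2 against T1 was 0.12 to 0.21. The 2 calls at T2 against T1 without T2 replicate 4 were of COX4L and COX5BL, which are near background. The 7 calls at T1 against T0 kept both direction and call in 114 of 119 values over the alternatives and lost the call in 5, and the 5 calls at T4 against T0 in 73 of 85. Of the genes that passed under 1 in size at T4 against T2, ND-20 and ND-MNLL kept this in 16 of 34 values. Signal over background limits the paralogs, COX7C and ND-B8.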
